A study of Mus musculus with 6 samples.

Results

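The genes described here are 10 markers of macrophages and other phagocytes, taken by name from a table of 38924 mouse genes: Lyz2, Msr1, Trem2, Mpeg1, Cd68, Adgre1, Ctss, Tyrobp, Fcer1g and Aif1. Each name matched 1 gene identifier, and all 10 genes passed the filter on low counts. RNA was sequenced from mouse epidermal cells carrying CD49f, the integrin alpha 6 chain of basal keratinocytes, which had been sorted by flow cytometry. Both groups were homozygous for a floxed Rnaseh2b allele (flox/flox). The 3 Cre-positive samples also carried K14-Cre, a recombinase under the keratin 14 promoter of basal keratinocytes, and the 3 Cre-negative samples did not. Rnaseh2b encodes a subunit of RNase H2, which starts the removal of ribonucleotides from DNA. Age, strain and labelled sex of the animals, and whether each sample was 1 animal, were not given in the sources used here, so the spread between samples may be partly technical. The genes were selected on the difference in counts between these same groups, which was already known, so their differences below are a description and not an independent test.

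Macrophages take up dead cells, microbes and debris through scavenger and Fc receptors and degrade them in lysosomes. Several of their activating receptors have no signalling tail and rely on small adaptors that carry an ITAM, a tyrosine motif that recruits the kinase Syk. Healthy epidermis holds few macrophages: its resident phagocytes are mainly Langerhans cells, which share many markers with macrophages, and most skin macrophages lie in the dermis. Mast cells, T cells, neutrophils and melanocytes also express some of the genes named here.

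The genes are described in 3 parts, the first 2 by fold difference and the last by overlap. Mean CPM of Lyz2, Msr1, Trem2 and Mpeg1 was 2.0-fold to 8.82-fold higher in Cre-positive than in Cre-negative libraries. Cd68, Adgre1 and Ctss lay 1.29-fold to 1.54-fold higher. Tyrobp, Fcer1g and Aif1 overlapped between the groups, at 0.941-fold, 0.948-fold and 1.23-fold. Aif1 thus lay close to Ctss in fold, and the parts are not sharply separate. CPM is the count of a gene relative to the scaled total of its library. By the quasi-likelihood test of edgeR over all 15525 genes tested, with an adjusted p below 0.05 as the threshold, 3 of the 10 genes were called higher (Lyz2, Msr1 and Trem2) and 0 lower. The same rule called 0.515% of all tested genes, 0.406% higher and 0.110% lower. By Xist and Y-linked genes the sexes were unequal, with 2 female and 1 male library in the Cre-negative group and 1 and 2 in the Cre-positive group. With sex as a covariate Msr1 stayed called, and the edgeR adjusted p was 0.0636 for Lyz2 and 0.0661 for Trem2. Msr1 had 4 or 5 counts in each Cre-negative library and entered both tests only through the Cre-positive group. Its call is therefore no independent support. The values of 7 genes did not overlap between the groups, each with the Cre-positive libraries above, which held for 14.1% of all tested genes. The median log2 fold change of the 10 genes was 0.56, beside 0.00 over all genes tested. In bulk RNA, more cells of a type and more RNA per cell cannot be told apart.

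**Figure D1:**
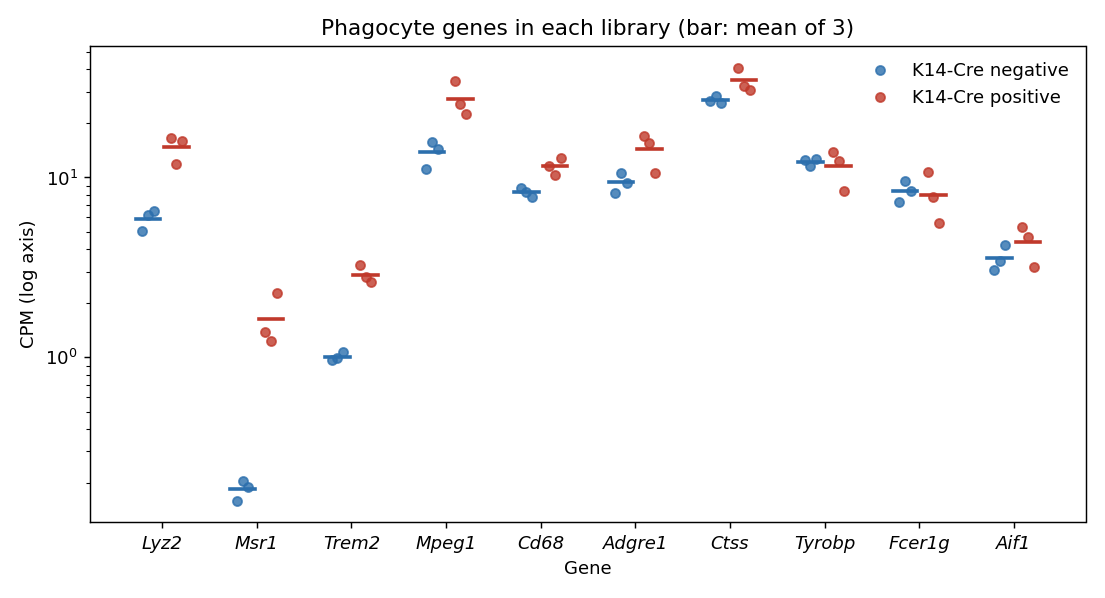
CPM of each phagocyte gene (log axis) in the 3 Cre-negative (blue) and 3 Cre-positive (red) libraries, 1 point per library, with the mean of 3 as a bar. Red points lie above all blue points for Lyz2, Msr1, Trem2, Mpeg1, Cd68, Adgre1 and Ctss, and the colours mix for Tyrobp, Fcer1g and Aif1.

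The libraries held between 22948779 and 31718094 counts, so a floor of 3 counts lay between 0.0922 and 0.143 CPM, which covers counting error only. Rnaseh2b had 172, 90 and 69 counts in the Cre-positive libraries against 543, 504 and 570, as the labels state the genotypes. Keratinocyte markers were abundant, with Krt14 at 5480 ± 319 CPM in Cre-positive and 5250 ± 580 CPM in Cre-negative libraries (SD, n = 3 each). Not all were level between the groups. Krt15 had 1030 ± 175 CPM in Cre-positive and 1960 ± 217 CPM in Cre-negative libraries (log2 fold change -0.92, edgeR adjusted p = 0.0572). Of 8 keratinocyte genes, 5 had a positive log2 fold change and 3 a negative one. Krt10, a keratin of the layers above the basal one, was abundant as well, at 61600 ± 8070 and 47800 ± 6290 CPM. Summed CPM of 6 fibroblast genes was 1370 in Cre-positive replicate 1, 176 and 226 in replicates 2 and 3, and 196 to 811 in the Cre-negative libraries. For 5 endothelial genes the sums were 22.6, 2.04 and 2.23 against 2.85 to 20.0. Cre-positive replicate 1 also gave the highest value of 8 of the 10 phagocyte genes. The differences without this library are given with the genes.

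Lyz2 encodes lysozyme M, an enzyme that cuts bacterial cell walls and is made by macrophages, monocytes and neutrophils. It lies at chr10:117277334-117282274 on the minus strand of mm10, with 4 exon blocks. Its CPM was 16.6, 11.9 and 15.9 in Cre-positive replicates 1, 2 and 3 and 5.01, 6.16 and 6.55 in the Cre-negative ones. Every Cre-positive library was above every Cre-negative one. The means were 14.8 ± 2.55 and 5.91 ± 0.797 CPM (SD, n = 3 each), a log2 fold change of 1.33 (SE 0.17), and 1.23 without Cre-positive replicate 1.

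The neighbouring gene Lyz1 is a near copy of Lyz2, and 15.4% of the 50-base stretches in the annotated Lyz2 transcripts also occur in another gene, mainly Lyz1. How the authors assigned such reads is not given in the sources used here, so the level of Lyz2 is uncertain to that extent. Lyz1 had 1, 0 and 2 counts in Cre-positive libraries and 0, 0 and 1 in Cre-negative ones. The 100 bases before the start sites of both genes are shown because the genes look alike there while their counts do not. They are from RefSeq (GRCm38.p6, minus strand), at chr10:117282273-117282372 for Lyz2 and chr10:117292869-117292968 for Lyz1. Capitals mark a match to TTNNGNAA, a loose C/EBP pattern.
Lyz2: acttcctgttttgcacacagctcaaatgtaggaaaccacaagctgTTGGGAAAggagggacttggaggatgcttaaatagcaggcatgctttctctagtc
Lyz1: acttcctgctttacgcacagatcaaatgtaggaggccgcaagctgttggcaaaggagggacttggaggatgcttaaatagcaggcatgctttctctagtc
Of these 100 bases, 92 were identical at the same position. The pattern matched 55 bases before the start of Lyz2, and for Lyz1 209 bases before it, outside the stretch shown.

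Msr1, Trem2 and Adgre1 encode surface receptors. Msr1 is scavenger receptor A, which binds modified lipoproteins and bacterial surfaces, at chr8:39581700-39642678 on the minus strand. It had 45, 28 and 48 counts in Cre-positive libraries and 4, 5 and 5 in Cre-negative ones, that is 1.38, 1.24 and 2.28 CPM against 0.160, 0.205 and 0.190 CPM. The groups were far apart, but the Cre-negative counts were just above the floor and under the minimum of 10 of the count filter. Msr1 therefore entered the test only through the group in which it was high, and the size of its difference is imprecise. Its log2 fold change was 3.10 (SE 0.36), and 3.21 without Cre-positive replicate 1.

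Trem2 encodes a lipid-sensing receptor that is known from microglia and lipid-laden macrophages and that signals through the Tyrobp adaptor. It lies at chr17:48346401-48354147 on the plus strand. Its CPM was 3.26, 2.79 and 2.61 in Cre-positive libraries and 0.963, 0.986 and 1.07 in Cre-negative ones. The Cre-negative libraries differed little among themselves (coefficient of variation 5.38%, against 11.5% in the Cre-positive group). The log2 fold change was 1.52 (SE 0.20), and 1.42 without Cre-positive replicate 1.

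Adgre1 encodes F4/80, the adhesion receptor used as the classical mouse macrophage marker and also carried by Langerhans cells. It lies at chr17:57358686-57483529 on the plus strand, with 22 exon blocks. It had 17.1, 15.5 and 10.6 CPM in Cre-positive libraries against 8.22, 10.6 and 9.32 CPM. Cre-positive replicate 3 and Cre-negative replicate 2 were level to 3 digits, so the groups barely separated. The log2 fold change of 0.62 (SE 0.19) was 0.48 without Cre-positive replicate 1 and 0.80 without Cre-positive replicate 3.

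Mpeg1, Cd68 and Ctss act inside the cell, in phagosomes and lysosomes. Mpeg1 encodes perforin-2, a pore-forming protein that damages engulfed bacteria, at chr19:12460779-12465284 on the plus strand. Its CPM was 34.2, 25.7 and 22.5 in Cre-positive libraries and 11.2, 15.7 and 14.4 in Cre-negative ones, with no overlap. The log2 fold change was 1.0 (SE 0.19), did not pass the threshold, and was 0.81 without Cre-positive replicate 1.

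Cd68 encodes macrosialin, a heavily glycosylated membrane protein of lysosomes, at chr11:69664213-69666153 on the minus strand. It had 11.6, 10.3 and 12.9 CPM in Cre-positive libraries against 8.70, 8.30 and 7.76 CPM. Here Cre-positive replicate 3 was the highest, unlike in Mpeg1 and Adgre1, where it was the lowest of its group. The log2 fold change was 0.49 (SE 0.12), and again 0.49 without Cre-positive replicate 1.

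Ctss encodes cathepsin S, the protease that trims the class II invariant chain in antigen-presenting cells, at chr3:95526786-95556403 on the plus strand. Its CPM was 40.8, 32.4 and 30.8 in Cre-positive libraries and 26.5, 28.4 and 26.0 in Cre-negative ones. The groups did not overlap, and the log2 fold change was 0.37 (SE 0.12), or 0.23 without Cre-positive replicate 1.

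Tyrobp and Fcer1g encode the ITAM adaptors DAP12 and the Fc receptor gamma chain. Tyrobp (chr7:30413788-30417577, plus strand) had 13.8, 12.3 and 8.46 CPM in Cre-positive libraries and 12.5, 11.6 and 12.6 CPM in Cre-negative ones. Fcer1g (chr1:171229572-171234365, minus strand) had 10.7, 7.74 and 5.61 CPM against 7.34, 9.57 and 8.41 CPM. For both, the Cre-positive libraries held the highest and the lowest of the 6 values. Their log2 fold changes were -0.08 (SE 0.18) and -0.07 (SE 0.24), and went to -0.24 and -0.34 without Cre-positive replicate 1. Both turned positive without Cre-positive replicate 3 (0.09 and 0.13). For Fcer1g the sign turned without Cre-negative replicate 2 as well (0.03).

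Aif1 encodes IBA1, an actin-binding protein of macrophages and microglia, at chr17:35170991-35176068 on the minus strand. Its CPM was 5.32, 4.65 and 3.18 in Cre-positive libraries and 3.05, 3.45 and 4.22 in Cre-negative ones, so the groups overlapped. The log2 fold change was 0.30 (SE 0.23), and 0.13 without Cre-positive replicate 1.

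**Figure D2:**
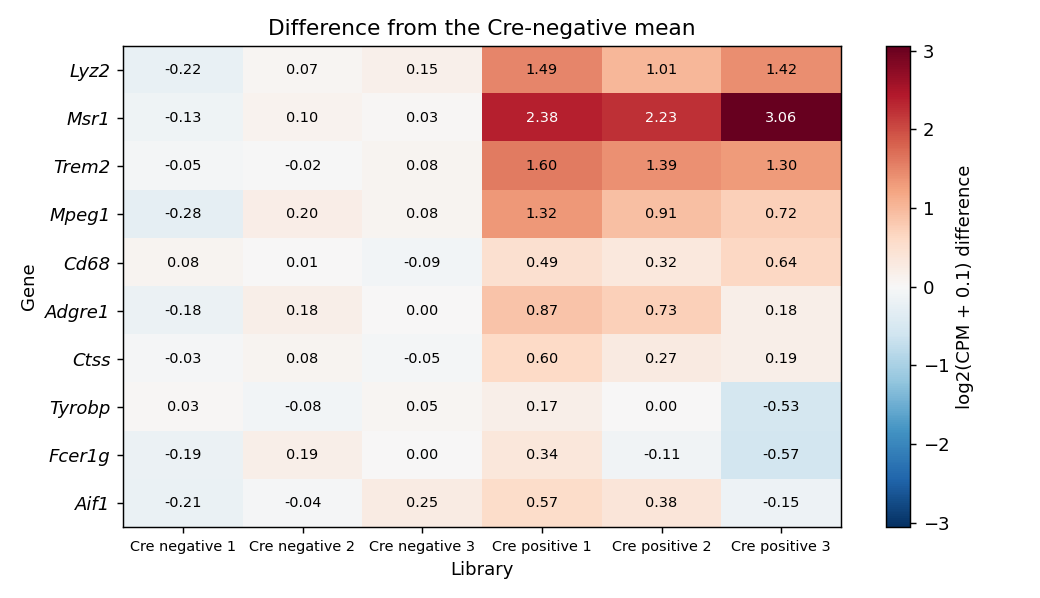
Difference of each library from the Cre-negative mean on the log2(CPM + 0.1) scale, with genes as rows and libraries as columns. Msr1 reaches 3.06 in Cre-positive replicate 3, whereas Tyrobp and Fcer1g lie at -0.53 and -0.57 in that library.

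Within the Cre-positive group the genes did not move in step. Cre-positive replicate 1 was the highest of the 6 libraries for 8 genes, and replicate 3 for Msr1 and Cd68. Replicate 3 was also the lowest of all 6 for Tyrobp and Fcer1g, while Cre-negative replicate 1 was the lowest for 6 genes. The summed CPM of the 10 genes was 155, 125 and 115 in Cre-positive libraries and 83.6, 94.9 and 90.6 in Cre-negative ones. The coefficient of variation was larger in the Cre-positive group for all 10 genes, from 11.1% for Cd68 to 34.5% for Msr1, and ran from 4.63% for Tyrobp to 16.9% for Mpeg1 in the Cre-negative group.

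Levels of different genes were compared as RPKM, the CPM divided by the summed exon length in kilobases. In Cre-negative libraries the order began with Tyrobp (21.7 ± 1.01) and Ctss (19.9 ± 0.948), whose mean ± SD ranges overlapped. Fcer1g (10.6 ± 1.39), Cd68 (6.57 ± 0.375) and Lyz2 (4.67 ± 0.630) came next, without overlap. Mpeg1 (3.18 ± 0.535), Adgre1 (2.89 ± 0.360) and Aif1 (2.33 ± 0.390) followed, each overlapping its neighbour. Trem2 (0.203 ± 0.0109) and Msr1 (0.0464 ± 0.00572) were the lowest. In Cre-positive libraries Ctss (25.6 ± 3.94) and Tyrobp (20.4 ± 4.87) still headed the order and overlapped. Lyz2 (11.7 ± 2.01) stood beside Fcer1g (7.01 to 13.3 over the 3 libraries) and Cd68 (9.22 ± 1.02) there, with overlapping ranges. Mpeg1 (6.34 ± 1.40), Adgre1 (4.44 ± 1.05) and Aif1 (2.86 ± 0.712) again overlapped their neighbours in the order, as did Trem2 (0.584 ± 0.0674) and Msr1 (0.409 ± 0.141). Msr1 and Trem2, with the largest log2 fold changes of the 10, had the lowest RPKM in both groups. The exon length of 4946 bases counted for Trem2 is longer than its longest coding transcript in GENCODE, of 1088 bases, which lowers its RPKM but not its fold change. The same holds for Aif1, with 1532 bases counted and 875 in its longest coding transcript. The place of Aif1 after Mpeg1 and Adgre1 therefore depends on the length used.

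A ratio of CPM within a library sets a gene against another gene of the same library and does not depend on the scaling. Trem2 per Tyrobp, its signalling partner, was 0.236, 0.227 and 0.309 in Cre-positive libraries and 0.0772, 0.0851 and 0.0843 in Cre-negative ones. Lyz2 per Csf1r, the receptor gene for the macrophage growth factor CSF1, was 0.512, 0.335 and 0.642 against 0.153, 0.184 and 0.226. Mpeg1 per Ptprc, the CD45 gene of all leukocytes, was 2.81, 3.09 and 2.87 against 1.06, 1.69 and 1.69. None of these 3 ratios overlapped between the groups. Trem2, Lyz2 and Mpeg1 were already known to be higher, so this is no independent support. It was also not particular to them. Aif1, whose CPM overlapped, had 0.385, 0.379 and 0.376 per Tyrobp in Cre-positive libraries against 0.244, 0.298 and 0.334. Cd68 per Fcer1g overlapped, with 1.09, 1.33 and 2.30 against 1.19, 0.867 and 0.923. Fcer1g per Tyrobp did overlap, with 0.773, 0.632 and 0.663 against 0.588, 0.826 and 0.666. Csf1r, Ptprc and these pairs were picked after their values were seen, and 17.8% of the exon bases of Csf1r also lie in Hmgxb3, which runs the other way.

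**Figure D3:**
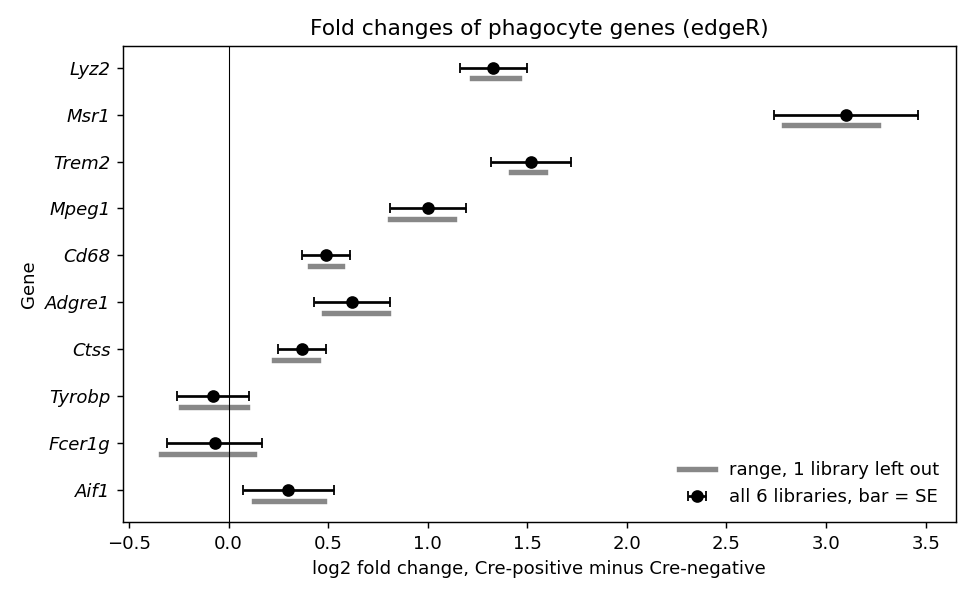
Log2 fold change of each gene, Cre-positive minus Cre-negative, from edgeR, with points for all 6 libraries, black bars for the SE and grey bars for the range when 1 library is left out. The grey bars begin at 1.22 for Lyz2, 2.79 for Msr1, 1.42 for Trem2 and 0.81 for Mpeg1, while those of Tyrobp and Fcer1g cross 0.

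Leaving out 1 library moved the number of calls more than the log2 fold changes. Without Cre-positive replicate 1 or 2, or Cre-negative replicate 1, 2 or 3, edgeR called 0 of the 10 genes, with 7, 7, 5, 7 and 6 of them at an unadjusted p below 0.05. Over all genes tested, 3399, 2773, 1844, 2085 and 1680 were below it in the same fits, of 15717 to 15950 genes. Without Cre-positive replicate 3 it called 5, Mpeg1 and Adgre1 among them. That fit called 288 genes higher and 134 lower over the whole table, against 63 and 17 by edgeR with all libraries. On all libraries DESeq2 called 5 of the 10, and 527 genes higher and 277 lower over the whole table. Limma-voom called 3 of the 10, and 52 genes higher and 14 lower. Scaling by the total count alone left only Msr1 called, with edgeR adjusted p = 0.0662 for Lyz2 and 0.0831 for Trem2. Msr1 entered that test only through the Cre-positive group.

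RefSeq promoter windows, from 250 bases before to 50 after the start site, were found for 7 of the 10 genes and not for Msr1, Adgre1 and Tyrobp. They are described because Lyz2, Trem2 and Mpeg1 were higher in Cre-positive libraries whereas Fcer1g and Aif1 overlapped. GAGGAA, a sequence bound by the myeloid factor PU.1, was searched on both strands, and shorter or variant forms of it were not. It occurred in 4 of the 7 windows (Aif1, Cd68, Ctss and Trem2) and in 28.3% of all 32851 windows. TTNNGNAA, searched likewise, occurred in 4 (Cd68, Lyz2, Mpeg1 and Trem2) and in 40.7% of all windows. TGACTCA, the AP-1 site, occurred on either strand in Cd68 alone and in 5.2% of all windows. Matches of different patterns did not overlap in the bases shown. The 100 bases before the start are given for 5 genes, with matches to any of the 3 patterns in capitals.
Trem2: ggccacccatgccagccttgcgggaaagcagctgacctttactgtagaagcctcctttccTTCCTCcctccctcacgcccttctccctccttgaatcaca
Mpeg1: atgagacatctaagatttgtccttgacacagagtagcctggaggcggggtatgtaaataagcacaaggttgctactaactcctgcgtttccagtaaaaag
Cd68: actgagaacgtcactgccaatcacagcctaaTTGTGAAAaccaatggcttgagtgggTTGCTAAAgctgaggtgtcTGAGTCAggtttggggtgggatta
Fcer1g: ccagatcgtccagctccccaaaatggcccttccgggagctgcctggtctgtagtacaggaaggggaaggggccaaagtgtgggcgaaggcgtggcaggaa
Aif1: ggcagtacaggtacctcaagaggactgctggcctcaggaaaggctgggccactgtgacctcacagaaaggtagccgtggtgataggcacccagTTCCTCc
The windows are chr17:48346301-48346400 (Trem2, plus strand), chr19:12460670-12460769 (Mpeg1, plus), chr11:69666171-69666270 (Cd68, minus), chr1:171234350-171234449 (Fcer1g, minus) and chr17:35176053-35176152 (Aif1, minus) of GRCm38.p6. GAGGAA began 40 bases before the start of Trem2 and 7 before that of Aif1. None of the 3 patterns matched in the 100 bases of Mpeg1 and Fcer1g. A match here is a match of letters only.

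Other genes of macrophages were described by lists. Over all genes tested, 18.8% had an unadjusted edgeR p below 0.05 and 49% a positive log2 fold change. The counts of each list are to be read against these shares. The fit without Cre-positive replicate 3 called 288 genes higher and 134 lower over the whole table, and DESeq2 527 and 277. Calls of list genes in those fits are to be read against these numbers. Of 20 genes for macrophage identity and growth factors, 19 were tested and edgeR called 0, with 3 at an unadjusted p below 0.05. Limma-voom called 0 as well, and DESeq2 1, which was lower. Their median log2 fold change was 0.09, and 0.04 without Cre-positive replicate 1. C1qb, a subunit gene of the complement protein C1q that macrophages secrete, had 36.0 ± 4.45 CPM in Cre-positive and 29.6 ± 2.0 CPM in Cre-negative libraries (log2 fold change 0.28, SE 0.11). Csf1r had a log2 fold change of -0.04 (SE 0.14). Il34, the keratinocyte-made ligand of the CSF1 receptor on which Langerhans cells depend, had 43.5 ± 6.62 against 65.5 ± 5.15 CPM (log2 fold change -0.59 with an SE of 0.12, edgeR adjusted p = 0.0920). Cebpa, a transcription factor gene that keratinocytes also express, had a log2 fold change of -0.06.

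The list of other scavenger and engulfment receptors, which also holds genes of their ligands such as Gas6, had 24 of 29 genes tested. EdgeR and limma-voom called 0 of them and DESeq2 5 higher and 1 lower. By edgeR, 12 had an unadjusted p below 0.05. Their median log2 fold change was 0.37. Cre-positive libraries were all above the Cre-negative ones for 11 genes and all below for 1 (Gas6), where 14.1% and 13.8% of all tested genes did so. Fcgr3, a low-affinity receptor for antibodies that needs the Fcer1g chain, had 7.92 ± 1.14 CPM in Cre-positive and 4.09 ± 0.414 CPM in Cre-negative libraries (log2 fold change 0.95 with an SE of 0.16, edgeR adjusted p = 0.0667). Megf10, an engulfment receptor also made outside leukocytes, had 9.74 ± 1.71 against 4.68 ± 0.802 CPM (log2 fold change 1.06, edgeR adjusted p = 0.0739). Without Cre-positive replicate 3, edgeR called 4 genes of this list higher.

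Lysosome genes had 25 of 26 tested, and 22 had a positive log2 fold change, with a median of 0.18. The gene past the threshold was Gpnmb, a glycoprotein gene of melanosomes and of macrophage lysosomes, which rose to 106 ± 18.0 CPM against 41.0 ± 7.67 CPM (log2 fold change 1.36 with an SE of 0.17, edgeR adjusted p = 0.0339). Ctsh, a cathepsin gene, had 108 ± 28.6 against 68.0 ± 6.01 CPM, and Ctsd, the most abundant gene of the list, 938 ± 283 against 677 ± 12.2 CPM. DESeq2 called 3 of the list higher and limma-voom 1. EdgeR called 0 of the list with sex as a covariate, and 0 without Cre-positive replicate 1 or 2 or Cre-negative replicate 1, 2 or 3, and it called 2 without Cre-positive replicate 3.

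For receptors and signalling genes of the ITAM pathway, 17 of 22 genes were tested. Fcgr3, described above, belongs to this list as well. EdgeR and limma-voom called 0 and DESeq2 1 higher. By edgeR, 5 had an unadjusted p below 0.05, in both directions. Cre-positive libraries were all above the Cre-negative ones for 3 genes and all below for 2. This held for 14.1% and 13.8% of all tested genes. The median log2 fold change was 0.18. It was 0.04 without Cre-positive replicate 1 and 0.05 without replicate 2. Blnk, an adaptor gene downstream of Syk, had a log2 fold change of 0.33 (SE 0.09), and Ptpn6, the phosphatase SHP-1 that restrains these receptors, -0.28 (SE 0.07). Of 18 macrophage cytokine and activation genes 11 were tested. EdgeR and limma-voom called 0 of them and DESeq2 1 higher, with 2 at an unadjusted p below 0.05. Their median of 0.34 turned to -0.28 without Cre-positive replicate 1. Il1rn, the interleukin-1 receptor antagonist gene that keratinocytes also make, had 115 ± 13.1 against 86.3 ± 2.85 CPM. Retnla, a gene of alternatively activated macrophages, had 0 counts in every library. Arg1, of the same list, was detected in all libraries, at 25.9 ± 7.29 CPM in Cre-positive and 19.0 ± 1.38 CPM in Cre-negative ones. Its log2 fold change was 0.44 (SE 0.19). Of the 11 tested genes, 9 had a positive log2 fold change and 2 a negative one.

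**Figure D4:**
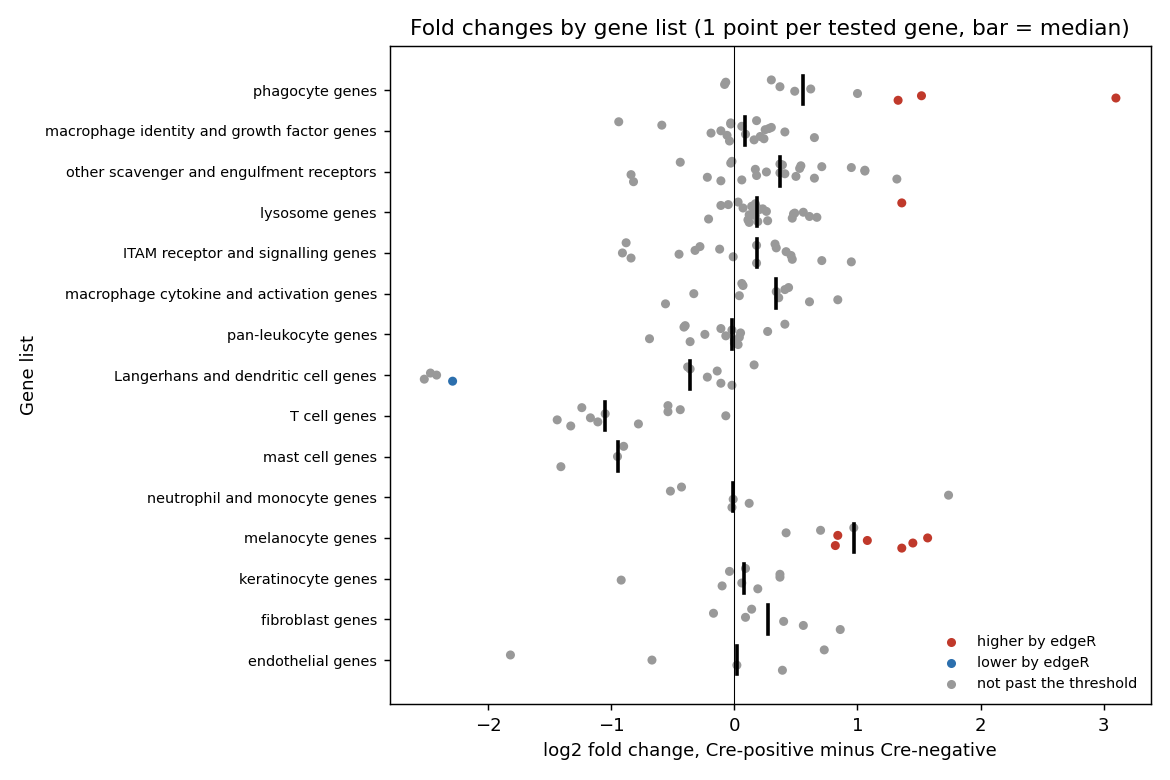
Log2 fold change, Cre-positive minus Cre-negative, of every tested gene by list, with red for genes called higher by edgeR, blue for lower, grey for neither, and a black bar for the list's median. The medians run from -1.05 for T cell genes to 0.97 for melanocyte genes, with 0.56 for the 10 phagocyte genes.

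Markers of other cells gave the following values, and their part in the differences of the phagocyte genes was not tested. Of 15 genes shared by all leukocytes, edgeR, DESeq2 and limma-voom called 0, with 1 at an unadjusted p below 0.05. Their median was -0.02, which went to -0.23 without Cre-positive replicate 1 and 0.02 without replicate 3. Ptprc had 9.45 ± 2.39 against 9.47 ± 1.04 CPM. Their summed CPM was 197, 181 and 144 in Cre-positive and 176 to 186 in Cre-negative libraries. Replicate 3 of the Cre-positive group, the lowest in Tyrobp and Fcer1g, was also the lowest in this sum.

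Of 15 Langerhans and dendritic cell genes 11 were tested, and the class II gene H2-Ab1 fell (log2 fold change -2.29 with an SE of 0.32, edgeR adjusted p = 0.0400). Limma-voom called 0 and DESeq2 3 lower, with 4 at an unadjusted p below 0.05 by edgeR. EdgeR called 0 with sex as a covariate, and 0 without Cre-positive replicate 1 or 2 or Cre-negative replicate 1, 2 or 3, and it called 3 lower without Cre-positive replicate 3. Cd207, which marks Langerhans cells, had 2, 6 and 0 counts against 16, 9 and 9. The list was not uniform: 10 log2 fold changes were negative and 1 positive. Their median was -0.36, and -0.96 without Cre-positive replicate 1. Cd74 had -2.42 (SE 0.39), whereas Epcam had -0.11 (SE 0.08), Cd24a 0.16 (SE 0.10) and the class II gene H2-Eb1 -0.22 (SE 0.43). Of 12 T cell genes 11 were in the table and tested, with 0 called by edgeR and limma-voom and 2 lower by DESeq2, with 8 at an unadjusted p below 0.05 and a median of -1.05.

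Of 8 mast cell genes 3 passed the filter, edgeR and limma-voom called 0, and 0 had an unadjusted p below 0.05 by edgeR. DESeq2 gave them no adjusted p. Fcer1a, which defines mast cells and basophils, had 0 counts throughout, whereas other genes of the list were detected. Tpsb2 had 26, 9 and 13 counts in Cre-positive libraries and 12, 19 and 57 in Cre-negative ones. The median log2 fold change of the 3 tested genes was -0.95, and -0.04 without Cre-negative replicate 3. The list's summed CPM was 1.02 to 2.95 in Cre-positive and 1.48 to 8.94 in Cre-negative libraries. Of 14 neutrophil and monocyte genes 6 were tested, edgeR, limma-voom and DESeq2 called 0, and 1 had an unadjusted p below 0.05. The neutrophil genes Ly6g and Elane had 0 counts in all 6 libraries, whereas other genes of the list were detected. The gene below 0.05 was Cxcr2, at 26, 15 and 64 counts in Cre-positive libraries and 7, 13 and 13 in Cre-negative ones. Its values in CPM did not overlap between the groups, and its log2 fold change was 1.74 (SE 0.65). S100a9 overlapped, with 188, 108 and 210 counts against 93, 153 and 230. The list summed to 32.7 to 86.5 CPM in Cre-positive and 69.0 to 78.2 CPM in Cre-negative libraries. Its largest part was Vcan, a proteoglycan gene that fibroblasts express too.

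EdgeR called 6 of 9 melanocyte genes higher, Gpnmb among them, and 0 lower, and all 9 had a positive log2 fold change. All 9 had an unadjusted p below 0.05, with a median of 0.97. Their summed CPM was 766 to 828 in Cre-positive and 391 to 463 in Cre-negative libraries. Without Cre-positive replicate 1, 2 or 3, edgeR called 2, 1 and 8 of them, and 0 without Cre-negative replicate 1, 2 or 3. Tyrp1, a melanin synthesis gene, had 42.2 ± 4.06 against 15.5 ± 0.895 CPM.

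The genes most like Lyz2 over the 6 libraries were sought among 12760 genes with a mean of at least 1 CPM, by the root mean square difference of mean-centred log2(CPM + 0.1). Nearest were Ptgds, a prostaglandin D synthase gene, at 0.134, Adcy2, an adenylate cyclase gene, at 0.136, and Tyrp1 at 0.163. Trem2 stood at rank 6 (0.180) and Mpeg1 at rank 32, whereas Tyrobp and Fcer1g stood at ranks 9423 and 9335. For Mpeg1 the nearest were Cyyr1 (0.092), Megf10 (0.117) and Ednrb (0.120), the endothelin receptor gene of melanocytes, with Adgre1 at rank 60. Ptgds had 54.5, 49.9 and 62.0 CPM in Cre-positive libraries and 20.5, 23.4 and 21.9 CPM in Cre-negative ones. Such likeness over 6 libraries in 2 groups reflects the difference between the groups as well as the spread within them.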

How the data were processed

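RNA was sequenced in 6 mouse samples, 3 K14-Cre-positive and 3 K14-Cre-negative, grouped by the Cre genotype in the labels. The deposited table holds unnormalized counts for every gene and library beside a gene length, per the file headers. Per the submitters' processing notes, the authors used GSNAP, featureCounts and the mm10 build. Versions, the strand setting and the treatment of reads shared between genes were not given in the sources used here, so reads of overlapping genes on opposite strands cannot be told apart. The 10 genes and the lists were chosen with earlier results of these data known.

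Identifiers were matched to symbols for 37607 of 38924 genes. Genes were kept by filterByExpr (minimum count 10), which left 15525, scaled by TMM and tested two-sided by quasi-likelihood in edgeR 4.0.16 (R 4.3.3) without covariates. P-values were adjusted by Benjamini-Hochberg over the whole tested table, with 0.05 as the threshold. CPM used the total over tested genes times the TMM factor. Standard errors came from the same test. Overlapping genes were named from 5% of the exon length and a mean of 10 counts.

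The genes named were the 10 phagocyte genes, Rnaseh2b, Lyz1, the genes nearest to Lyz2 and Mpeg1, and, from each list, the 2 most abundant, the 2 with the smallest p and any past the threshold. Not all that the rule takes are reported. Csf1r, Ptprc, Krt14, Cd207, Retnla, Fcer1a, Ly6g and Elane fall outside it and were chosen after their values were seen. Alternatives were DESeq2 size factors, total-count scaling, DESeq2 1.42.0, limma-voom (limma 3.58.1), no filter beyond 1 count, a mean of 1 CPM, a sex covariate taken from Xist and the Y genes, summed Lyz1 and Lyz2 counts, and leaving out each library. The fits were tested on simulated counts. Libraries of a group differed by a chi-square per degree of freedom of 9.10 to 70.36, above sampling noise, so none was counted as a repeat.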

Additional observations from a re-analysis of the deposited data

How the results depend on the processing

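EdgeR called 63 genes higher and 17 lower over the whole table, and 3 of the 10 phagocyte genes higher. With total-count scaling it called 27 genes higher and 1 phagocyte gene. With sex as a covariate the counts were 34 higher, 8 lower and 1 phagocyte gene. Without a filter beyond 1 count they were 104 higher and 38 lower. DESeq2 called 527 higher, 277 lower and 5 phagocyte genes. Leaving out 1 library gave 0 to 288 genes higher, 0 to 134 lower and 0 to 5 phagocyte genes higher. The cause was not tested. No phagocyte gene was called lower in any of these fits. Total-count scaling moved the median of all genes by -0.12. Of 130 log2 fold changes of phagocyte genes under the alternatives, 103 kept their sign and their side of the threshold, 19 lost a call, 5 gained 1 and 3 turned sign, all 3 with 1 library left out. These were Tyrobp (0.09) and Fcer1g (0.13) without Cre-positive replicate 3, and Fcer1g (0.03) without Cre-negative replicate 2. Over all alternatives Tyrobp ran from -0.24 to 0.09 and Fcer1g from -0.34 to 0.13. With Lyz1 and Lyz2 counts summed, Lyz2 kept 1.33. Msr1 could not be tested at a mean of 1 CPM. No paired analysis was possible because the labels give the groups no shared replicate numbers. Depth limits Msr1 most, with 4 or 5 counts in each Cre-negative library.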
